A study of Mus musculus with 8 samples.

Results

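The genes described here are 31 genes of adipocytes, the fat-storing cells that lie as a layer beneath the dermis of mouse skin. They were chosen by symbol, as a list of adipocyte hormones, lipid enzymes, transcription factors and insulin-response genes, with earlier results of these arrays known. Of the 31, 27 had a probe set (a group of short array probes read as 1 value) annotated to exactly 1 gene symbol, and where a gene had several, the one of highest mean value across the 8 arrays stood for it. The same rule gave 18193 genes in all. Leaving out the lowest 30% of them by mean level, those below 6.68 on the deposited log2 scale, left 12735 genes, 24 of which are adipocyte genes. *Acvr1c*, *Aqp7* and *Ucp1* lay below that level, and *Cfd*, *Plin1*, *Acsl1* and *Adrb3*, for which the annotation used gives no probe set with 1 symbol, were not analysed here.

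Gene expression was measured in whole skin from the back of female mice of the hairless strain Hos:HR-1. The collagen group ate, for 12 weeks, the purified diet AIN-93G mixed with hydrolysed collagen from fish scales, 2.0 g for every 100 g of diet. The control group ate AIN-93G alone for the same time. All mice were 9 weeks old at the start and 21 weeks old when sampled, and all shared the strain, the sex and the base diet. Of 16 mice, 8 on each diet, 4 on each diet have an array, and the labels call these biological replicates. Mice were kept 4 to a cage, and which mice shared a cage is not given for the arrays.

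White adipocytes take up fatty acids, store them as triglyceride in a single large droplet and release them again by lipolysis, which adrenergic signals start and insulin restrains. Their identity is set by the nuclear receptor PPARG together with C/EBP factors, which switch on the genes of lipid storage and of hormones such as adiponectin and leptin. In mouse skin the dermal fat layer thickens and thins with the hair cycle, cold and infection, so a skin sample holds a varying amount of it, besides any subcutaneous fat and muscle that comes away with the skin.

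The deposited values differed very little between arrays. The median SD over the 8 arrays was 1.99e-05 log2 units for the genes tested, and their summarisation and normalisation are unstated in the sources used, so no value below is a fold change of RNA. Each array's value is therefore given as its deviation from the gene's mean over the 8 arrays, divided by the gene's pooled SD within the diets (written SD), and a diet difference is collagen minus control in the same unit. Of the 24 adipocyte genes, 19 had an SD over the arrays above the median of all genes tested, against 50% by construction for all genes. The SD ran from 4.15e-06 log2 units for *Adipor2* to 0.00571 for *Pck1*. Since the tissue was whole skin, fewer adipocytes and less RNA per adipocyte cannot be told apart in any of these values.

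Promoter sequences are shown for *Adipoq*, *Cidec* and *Lep*, hormone and droplet genes whose values are followed across the arrays below, and for *Pparg*, the adipocyte gene whose diets did not overlap. RefSeq (build GRCm38.p6) gave a window from 250 bases before to 50 after a transcription start for 23 of the 31 genes, 31 windows in all. The windows were searched on both strands for TTGCNNAA, the core that C/EBP factors bind, for TTGCGCAA, its palindromic form, which every TTGCNNAA search also finds, and for AGGTCANAGGTCA, the direct repeat read by PPARG with its partner RXR. Below, the 250 bases before the start are printed 5′ to 3′ along the gene, with matches to TTGCNNAA on either strand in capitals.
*Adipoq*, chr16:23146286-23146535, plus strand: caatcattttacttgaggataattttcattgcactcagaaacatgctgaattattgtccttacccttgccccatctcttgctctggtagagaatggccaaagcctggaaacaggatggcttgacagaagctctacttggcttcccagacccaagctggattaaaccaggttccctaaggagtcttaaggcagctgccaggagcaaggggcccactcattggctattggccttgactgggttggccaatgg
*Lep*, chr6:29059971-29060220, plus strand: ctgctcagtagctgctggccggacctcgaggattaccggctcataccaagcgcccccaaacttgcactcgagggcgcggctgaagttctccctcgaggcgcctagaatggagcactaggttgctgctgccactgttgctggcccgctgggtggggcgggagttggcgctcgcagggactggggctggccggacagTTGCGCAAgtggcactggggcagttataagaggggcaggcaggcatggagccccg
*Cidec*, chr6:113434765-113435014, minus strand: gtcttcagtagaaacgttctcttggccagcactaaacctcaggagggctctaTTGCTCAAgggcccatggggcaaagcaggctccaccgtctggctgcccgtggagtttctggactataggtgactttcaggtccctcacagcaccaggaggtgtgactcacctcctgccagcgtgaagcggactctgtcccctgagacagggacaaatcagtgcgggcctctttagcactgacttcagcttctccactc
*Pparg*, chr6:115421816-115422065, plus strand: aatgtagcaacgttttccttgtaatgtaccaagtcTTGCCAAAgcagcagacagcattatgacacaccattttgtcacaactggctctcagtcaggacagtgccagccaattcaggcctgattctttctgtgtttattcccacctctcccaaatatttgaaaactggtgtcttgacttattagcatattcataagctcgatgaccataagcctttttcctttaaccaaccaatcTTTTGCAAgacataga
The *Lep* window held TTGCGCAA, starting 55 bases before the start, a form found in 0.183% of all 32851 RefSeq windows. The *Cidec* window shown, 1 of 2 for that gene, held TTGCTCAA at 198 bases before the start. The *Pparg* window shown, 1 of 3, held TTGCCAAA at 215 bases and, on the opposite strand, TTTTGCAA at 16 bases before the start. TTGCNNAA was present in 4 of the 31 windows of adipocyte genes, those of *Lep*, *Cidec*, *Pparg* and *Plin1*, against 10.8% of all windows. AGGTCANAGGTCA was in 0 of the 31 and in 0.0396% of all windows. A match describes the letters only and does not show binding.

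None of the 24 adipocyte genes differed between the diets by the test used, and none of all 12735 genes did (0% at an adjusted p below 0.05, limma). *Pparg* and *Mgll* were the adipocyte genes with an unadjusted limma p below 0.05, both with lower values on the collagen diet. Among all genes 5.36% had such a p, 4.15% with lower and 1.21% with higher values on the collagen diet. *Pparg* was also the only adipocyte gene whose 4 collagen-diet arrays did not overlap the 4 control-diet arrays, as was the case for 3.31% of all genes, 2.53% in this direction. Fitted differences were above 0 for 14 adipocyte genes and below 0 for 10, with a median of 0.135 SD, against 45.5% above 0 and a median of -0.0803 SD over all genes. Scaling turned this split: after quantile normalisation 7 of the 21 adipocyte genes with any spread left were above 0 and 13 below, with 30.5% of all genes above 0, and after centring each array on its median 8 were above and 16 below, with 13.5% of all genes above 0. The split also turned when single arrays were left out, with 10 to 15 adipocyte genes above 0. Without collagen-diet replicate 1 it was 10 above and 14 below, with 42.7% of all genes above 0. Without control-diet replicate 1 it was 11 above and 13 below, with 43.7% of all genes above 0. With 4 arrays per diet an exact two-sided permutation test of a single gene cannot give a p below 0.0286.

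**Figure D1:**
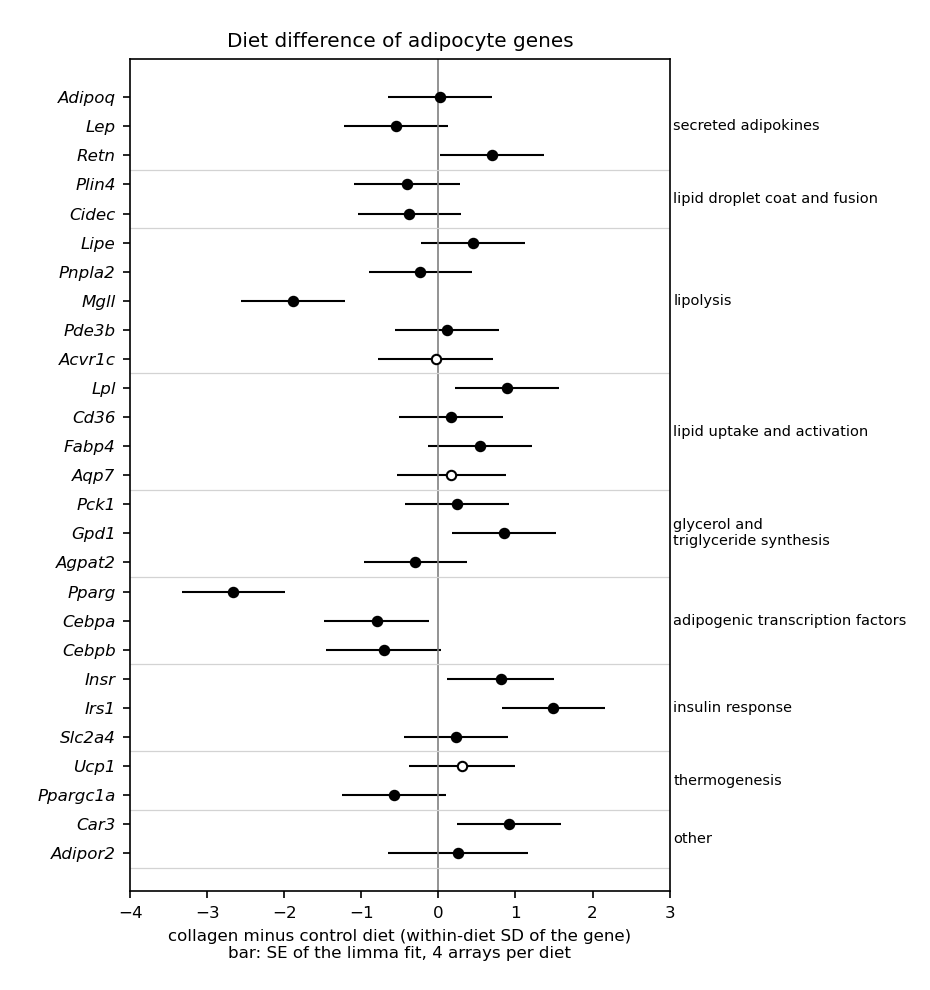
Diet difference of 27 adipocyte genes, grouped by role from top to bottom. Points give limma's fitted value for collagen minus that for control, divided by the within-diet SD of the gene, bars give the SE of the limma fit with 4 arrays per diet, and open points are the 3 genes below the level filter. *Pparg* at -2.66 SD and *Mgll* at -1.88 SD lie farthest to the left, and *Irs1* at 1.49 SD farthest to the right.

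All 3 adipogenic transcription factors had lower mean values on the collagen diet, with a median difference of -0.803 SD, and none passed the test. *Pparg* (probe set 1420715_a_at, mean 8.48 log2), the nuclear receptor that fat cells need to form and to persist, stood at -0.0028, -1.72, -2.45 and -1.14 SD in collagen-diet replicates 1 to 4, against 1.72, 2.51, 0.65 and 0.44 SD in control-diet replicates 1 to 4. Collagen-diet replicate 3 was lowest and control-diet replicate 2 highest, and the gap between the groups lay between collagen-diet replicate 1 and control-diet replicate 4. The difference was -2.66 SD (SE 0.674, n = 4 per diet, limma adjusted p = 0.698), or -1.78e-04 ± 4.51e-05 (SE) on the deposited log2 scale. Leaving out each array in turn gave -3.63 to -2.35 SD, while it was -1.16 SD after median centring and -0.366 SD after quantile normalisation, scalings under which most of all genes lay below 0. *Cebpa*, which acts with PPARG in the mature adipocyte, stood at 0.71, -0.43, -0.42 and -1.46 SD in collagen-diet replicates 1 to 4, against -0.76, 0.62, -0.073 and 1.82 SD in control-diet replicates 1 to 4, and the groups overlapped (difference -0.80 SD). *Cebpb*, an early factor of the differentiation programme that many other skin cells also express, differed by -0.71 SD, with control-diet replicates 1 and 2 above the other arrays. The adjusted p was 0.999 for *Cebpa* and for *Cebpb* in limma, by the probe sets used. A further *Cebpb* probe set, 1427844_a_at at a mean of 10.05 log2, differed by -1.74 SD with overlapping groups. With the mean of all probe sets *Cebpb* differed by -1.70 SD (limma adjusted p = 0.866).

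The lipolysis genes did not share a direction. *Mgll* (probe set 1426785_s_at, mean 12.44 log2), the monoacylglycerol lipase that frees the last fatty acid and is also expressed in other cell types, stood at -0.71, -2.12, -1.43 and 0.49 SD in collagen-diet replicates 1 to 4, against 0.18, 0.39, 2.10 and 1.10 SD in control-diet replicates 1 to 4. The groups overlapped through collagen-diet replicate 4, which lay above control-diet replicates 1 and 2. The difference was -1.88 SD (SE 0.675, n = 4 per diet, limma adjusted p = 0.872), and -0.533 SD after median centring. Of its 3 further probe sets, those at a high level gave -1.50 and -1.76 SD, and 1431331_at, near the level filter, gave 0.94 SD. *Lipe*, hormone-sensitive lipase, stood at 0.37, -0.28, 0.72 and 0.082 SD in collagen-diet replicates 1 to 4, against -2.13, -0.21, 0.84 and 0.60 SD in control-diet replicates 1 to 4. Control-diet replicate 1 was the lowest by a wide margin and the groups overlapped, with a difference of 0.45 SD that became -0.395 SD without that array. *Pnpla2*, the triglyceride lipase that starts lipolysis, and *Pde3b*, the phosphodiesterase through which insulin lowers cyclic AMP, differed by -0.23 and 0.11 SD. *Acvr1c*, an activin-type receptor that restrains lipolysis, lay below the level filter and differed by -0.036 SD.

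Among the adipokines, hormones released by fat cells, no difference stood out from the spread between mice. *Adipoq* (probe set 1422651_at, mean 11.24 log2), which encodes adiponectin, a protein made almost only by adipocytes, stood at 0.62, -0.29, -0.032 and -0.27 SD in collagen-diet replicates 1 to 4, against -2.00, 0.31, 0.91 and 0.75 SD in control-diet replicates 1 to 4. Control-diet replicate 1 was far below the other 7 arrays, which lay close together. The difference was 0.016 SD (SE 0.674, n = 4 per diet, limma adjusted p = 0.999), and without control-diet replicate 1 it was -1.70 SD. *Lep*, leptin, the satiety hormone, stood at 0.16, 0.54, -0.99 and -0.82 SD in collagen-diet replicates 1 to 4, against -0.54, -0.30, -0.12 and 2.06 SD in control-diet replicates 1 to 4. Control-diet replicate 4 was far above the others, and the difference of -0.55 SD became 0.071 SD without it. *Retn*, which encodes resistin, differed by 0.69 SD with overlapping groups.

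Both droplet genes had a lower mean on the collagen diet by less than the spread between arrays, and the sign of *Plin4* turned under quantile normalisation. *Plin4*, a protein that coats droplets, stood at 0.61, 0.14, -0.83 and -0.73 SD in collagen-diet replicates 1 to 4, against -1.21, 0.16, 0.076 and 1.79 SD in control-diet replicates 1 to 4. *Cidec*, which passes lipid between touching droplets and makes large ones, stood at 0.18, -0.40, -0.50 and -0.032 SD in collagen-diet replicates 1 to 4, against -1.54, -0.15, 0.75 and 1.70 SD in control-diet replicates 1 to 4. In both genes control-diet replicate 1 was lowest and control-diet replicate 4 highest, with the 4 collagen-diet arrays in between. The differences were -0.41 and -0.38 SD, and without control-diet replicate 4 they were 0.168 and 0.165 SD.

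The genes of lipid uptake, with a median difference of 0.539 SD, did not separate the diets either. *Lpl*, the lipase that frees fatty acids from circulating lipoproteins, stood at -0.24, 0.60, 0.82 and 0.61 SD in collagen-diet replicates 1 to 4, against -0.64, -0.33, 1.22 and -2.03 SD in control-diet replicates 1 to 4. Control-diet replicate 3 was highest and control-diet replicate 4 lowest, so the collagen-diet arrays lay inside the control range (difference 0.89 SD). *Cd36*, a fatty acid transporter that macrophages and endothelium also carry, and *Fabp4*, the fatty acid binding protein of adipocytes, differed by 0.16 and 0.54 SD. The sign of *Cd36* turned after median centring. That of *Fabp4* turned after quantile normalisation, where its difference was a value that tied arrays give, so this turn is no check. *Aqp7*, the glycerol channel of fat cells, lay below the level filter and differed by 0.17 SD. For the glycerol backbone of triglyceride, *Gpd1*, which makes glycerol 3-phosphate, differed by 0.85 SD, *Pck1*, the enzyme of glyceroneogenesis, by 0.25 SD, and *Agpat2*, an acyltransferase of triglyceride synthesis, by -0.30 SD. In *Pck1* collagen-diet replicate 1 was highest at 1.69 SD and control-diet replicate 2 lowest at -1.07 SD. Those above the level filter had an adjusted p of 0.999 in limma.

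The 3 insulin-response genes had higher means on the collagen diet, with a median of 0.807 SD, though the sign of *Insr* turned under both scalings. *Irs1*, the adaptor that carries the insulin signal from the receptor, stood at 0.32, -0.26, 2.38 and 0.54 SD in collagen-diet replicates 1 to 4, against -1.33, -0.48, 0.31 and -1.49 SD in control-diet replicates 1 to 4. Collagen-diet replicate 3 lay far above the rest, and the groups overlapped. The difference was 1.49 SD (SE 0.674, n = 4 per diet, limma adjusted p = 0.965). *Insr*, the insulin receptor, differed by 0.81 SD, with collagen-diet replicate 1 highest at 1.79 SD. *Slc2a4*, which encodes the insulin-responsive glucose transporter GLUT4 of fat and muscle, stood at -1.13, -0.27, 1.15 and 0.69 SD in collagen-diet replicates 1 to 4, against -0.11, 1.04, -0.015 and -1.36 SD in control-diet replicates 1 to 4, a difference of 0.22 SD. *Ppargc1a*, a coactivator of mitochondrial genes in brown fat and muscle, differed by -0.58 SD, and *Ucp1*, the uncoupling protein of brown fat, lay below the level filter and differed by 0.31 SD. *Car3*, a carbonic anhydrase abundant in adipocytes and in slow muscle, stood at 0.07, 0.69, 0.89 and 0.17 SD in collagen-diet replicates 1 to 4, against -0.94, 0.42, 0.83 and -2.14 SD in control-diet replicates 1 to 4. Control-diet replicate 4 was lowest, the groups overlapped and the difference was 0.91 SD. *Adipor2*, a receptor for adiponectin, differed by 0.25 SD.

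**Figure D2:**
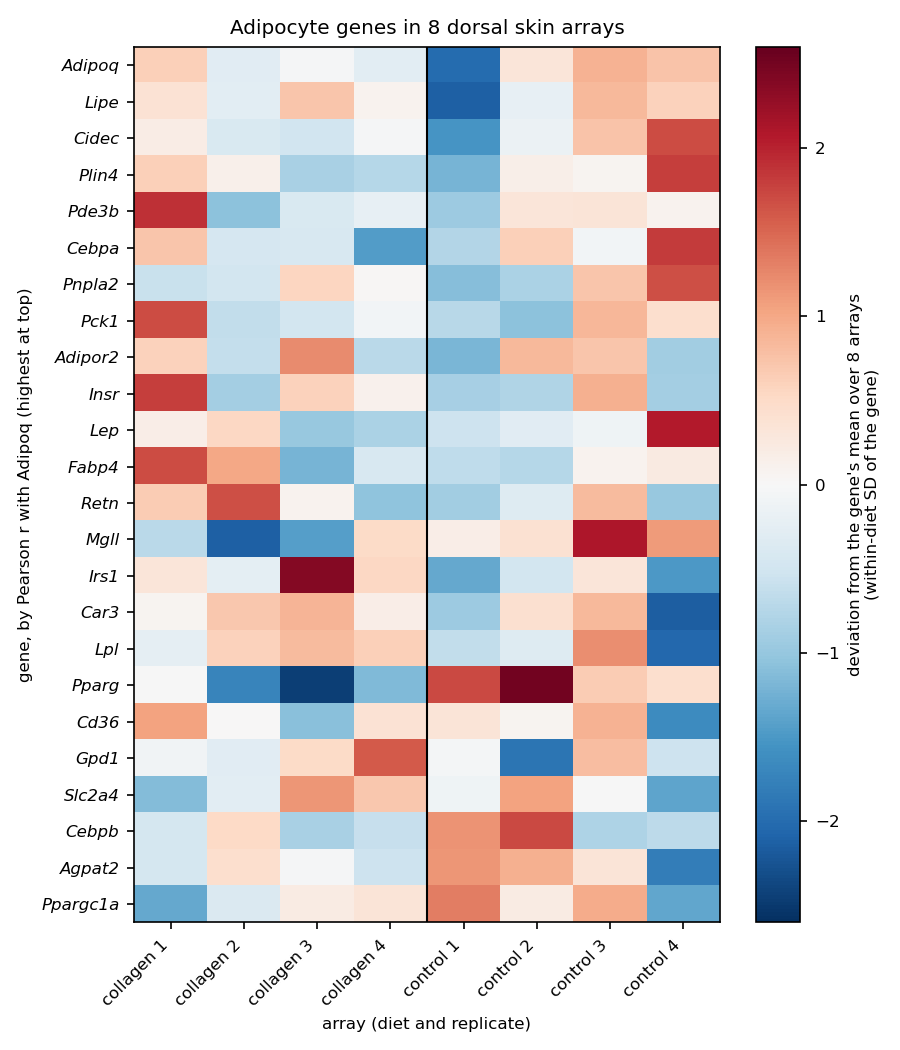
Deviation of 24 adipocyte genes from their mean over the 8 arrays, in units of the gene's within-diet SD (colour), with collagen-diet arrays left of the line and control-diet arrays right of it. Genes are ordered by their Pearson r with *Adipoq*, highest at the top, and the upper rows are dark blue in control-diet replicate 1, where *Adipoq* reached -2.00 SD and *Lipe* -2.13 SD.

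The adipocyte genes were not high or low as one block. The median deviation of the 24 genes was 0.25, -0.28, -0.035 and -0.056 SD in collagen-diet replicates 1 to 4, against -0.75, 0.12, 0.74 and -0.23 SD in control-diet replicates 1 to 4. Control-diet replicate 1 was therefore the lowest array by this median and control-diet replicate 3 the highest. Control-diet replicate 1 held the lowest value of 6 of the 24 genes, and of 11.7% of all genes. Control-diet replicate 3 held the lowest value of 0 adipocyte genes, and of 8.13% of all genes. Control-diet replicate 4 split them: it was the lowest array for 8 adipocyte genes, among them *Lpl*, *Cd36* and *Car3*, and the highest for 5, among them *Lep*, *Plin4*, *Cidec* and *Cebpa*. Of all genes 10.7% were lowest and 17.7% highest in that array, so the count of highest values is near that of all genes.

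Over the 8 arrays the 276 pairs of adipocyte genes had a median Pearson r of 0.0986, and 55.8% of them were positive. The 305064 pairs of an adipocyte gene with any other gene tested had a median of 0.0147 and were positive in 51.3%. An r above 0.7 was found in 20 pairs of adipocyte genes (7.25%), against 3.59% of the pairs with other genes, and an r below -0.7 in 8 pairs (2.90%), against 3.26%. The pairs share the same 8 arrays and are not independent. None of the 305340 relations passed adjustment (smallest adjusted p 0.473, exact permutation tests over all pairings, two-sided), while 6.53% of them, and 26 of the 276 pairs of adipocyte genes, had an unadjusted p below 0.05. The pair with the highest r was *Lpl* and *Car3*, with r = 0.926 (exact permutation p = 0.00117; rho = 0.857, exact permutation p = 0.0107; adjusted p = 0.531 for r). *Adipoq* and *Lipe* had r = 0.916 (exact permutation p = 0.00900; rho = 0.810, exact permutation p = 0.0218; adjusted p = 0.677 for r). *Lep* and *Plin4* had r = 0.911 (exact permutation p = 0.00273; rho = 0.810, exact permutation p = 0.0218; adjusted p = 0.596 for r). Without the 2 arrays farthest from the median of the gene named first, r was 0.767, 0.450 and 0.730 in these 3 pairs. For *Adipoq* and *Lipe* r was 0.613 without control-diet replicate 1 alone, and 0.903 without control-diet replicate 3 alone. *Plin4* was also related to *Cebpa* (r = 0.894) and to *Cidec* (r = 0.863). At the other end, *Plin4* and *Ppargc1a* had r = -0.804, *Lep* and *Slc2a4* r = -0.802, and *Fabp4* and *Slc2a4* r = -0.773. Of the other 5 pairs below -0.7, *Agpat2* was in 2, with *Cidec* (r = -0.790) and *Pnpla2* (r = -0.777), and *Cebpb* in 3, with *Pnpla2* (r = -0.749), *Lipe* (r = -0.735) and *Gpd1* (r = -0.709).

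**Figure D3:**
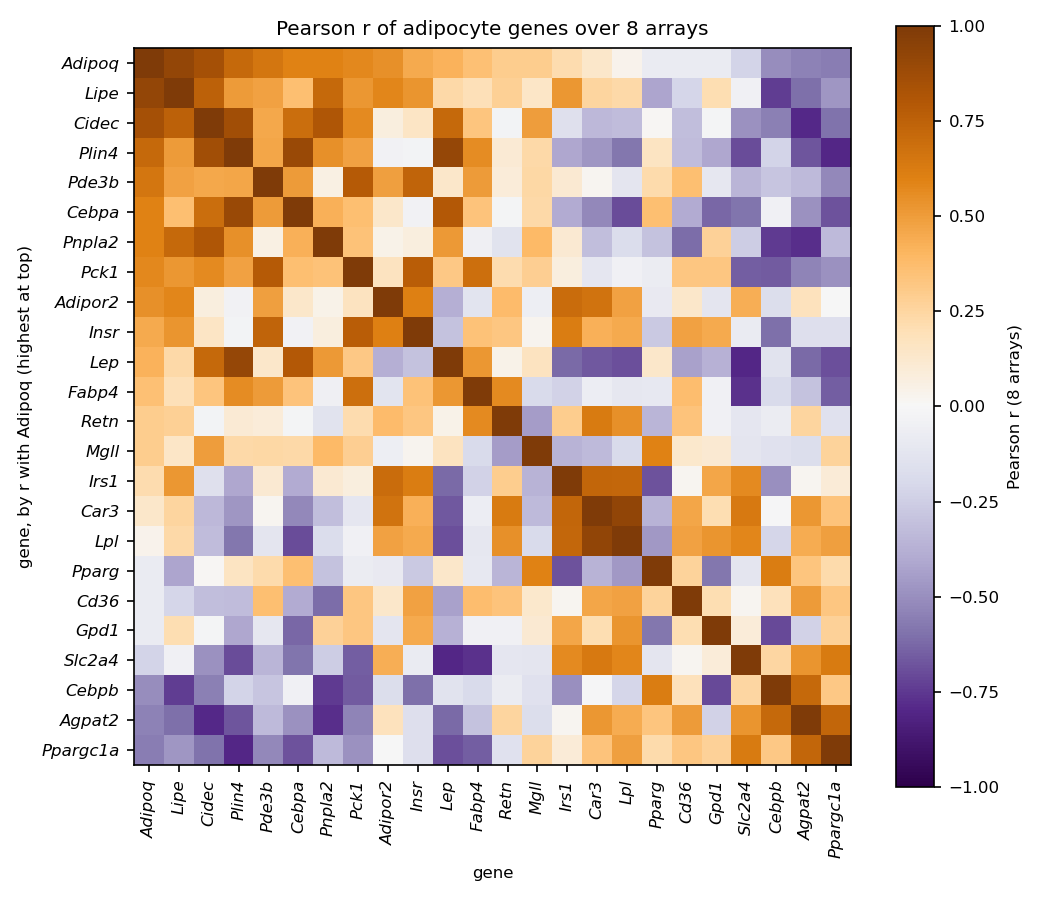
Pearson r over 8 arrays for every pair of the 24 adipocyte genes (colour), in the order of their r with *Adipoq*. A positive block at the upper left holds *Adipoq*, *Lipe*, *Cidec*, *Plin4*, *Pde3b*, *Cebpa* and *Pnpla2*, and 20 of the 276 pairs exceed 0.7.

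*Adipoq* was taken as the gene most particular to adipocytes, and every gene was set against it over the 8 arrays. The median r of the other 23 adipocyte genes was 0.296, with 16 of 23 positive, against a median of 0.0665 and 56.2% positive over all genes. An r above 0.7 was found for 3 of them, *Lipe*, *Cidec* and *Plin4*, and for 3.22% of all genes. For *Cidec* it was r = 0.851 (exact permutation p = 0.00813, rho = 0.857, exact permutation p = 0.0107), and 0.740 without the 2 arrays farthest from the median of *Adipoq*, which were control-diet replicates 1 and 3. For *Lipe* it was r = 0.916 (exact permutation p = 0.00900, rho = 0.810, exact permutation p = 0.0218), and 0.450 without those arrays. For *Plin4* it was r = 0.719 (exact permutation p = 0.0509, rho = 0.619, exact permutation p = 0.115), and 0.810 without them. *Lipe* and *Cidec* were the 2 with an unadjusted p below 0.05, as had 4.99% of all genes, and 0% of all genes passed adjustment (adjusted p = 0.981 for each of the 3). *Pparg* had r = -0.0782, and 0.623 without control-diet replicate 1. *Lpl* had r = 0.0379, and -0.376 without that array, and *Ppargc1a* had r = -0.561. Taken as deviations from the diet means, r was 0.943 for *Lipe*, 0.873 for *Cidec* and 0.741 for *Plin4*. After quantile normalisation it was 0.0612 for *Lipe*, 0.609 for *Cidec* and 0.268 for *Plin4*. Under that scaling the diet difference of *Adipoq* was 0.707 SD, the value that tied arrays with a single one apart give. These r values are therefore no check of the relations.

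**Figure D4:**
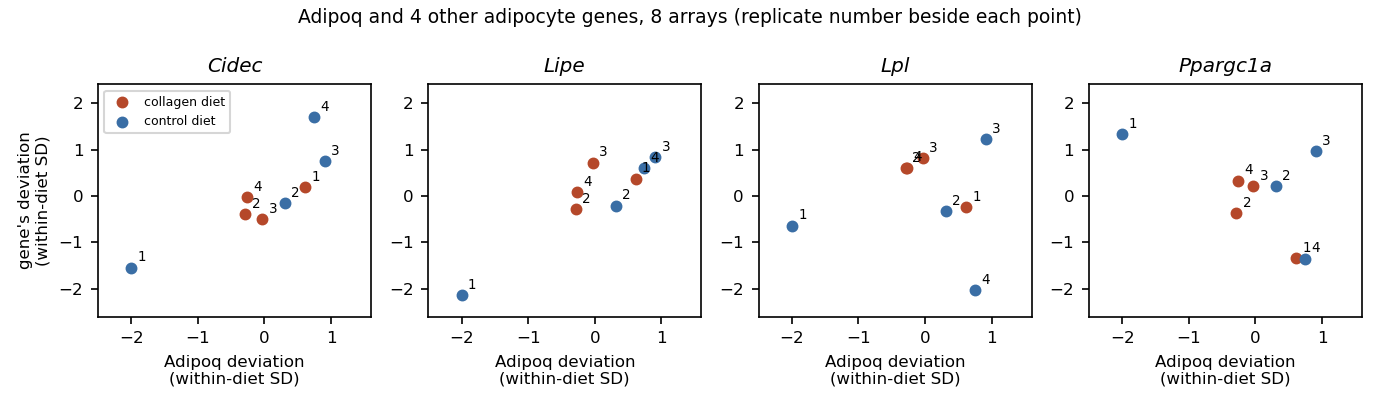
*Adipoq* against *Cidec*, *Lipe*, *Lpl* and *Ppargc1a* on 8 arrays, both axes as deviations from the gene's mean in within-diet SD, with red points for the collagen diet, blue points for the control diet and the replicate number beside each. Control-diet replicate 1 lies at the lower left for *Cidec* (r = 0.851) and *Lipe* (r = 0.916), while *Lpl* (r = 0.0379) and *Ppargc1a* (r = -0.561) do not follow that line.

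The 10 genes of the whole table most like *Adipoq* by Pearson r over the 8 arrays were *Fut11*, *Zfyve19*, *Slc7a10*, *Dazap2*, *Iqsec2*, *Dnmt1*, *Cyp1b1*, *Slc1a5*, *Lipe* and *Aifm2*, with r between 0.913 and 0.953. With the mean of all probe sets r was 0.318 for *Dnmt1* and between 0.815 (*Aifm2*) and 0.946 (*Zfyve19*) for the others. *Slc7a10*, an amino acid transporter used as a surface marker of white adipocytes, had r = 0.938 (exact permutation p = 0.00216, rho = 0.857, exact permutation p = 0.0107), and 0.740 without control-diet replicates 1 and 3. It was 1 of 18 other adipokines and secreted or surface proteins of adipocytes tested, 16 of which had a positive r with *Adipoq* (median 0.405). *Rarres2*, the adipokine chemerin, had r = 0.848 (exact permutation p = 0.0117, rho = 0.857, exact permutation p = 0.0107), and *Agt*, angiotensinogen, had r = 0.776 (exact permutation p = 0.0139, rho = 0.762, exact permutation p = 0.0368). Of 15 other insulin and adrenergic signalling genes, 11 of which had a positive r (median 0.119), *Adcy6*, an adenylate cyclase, had r = 0.869 (exact permutation p = 0.00208, rho = 0.881, exact permutation p = 0.00724). Of 28 other triglyceride and fatty acid genes, only 10 had a positive r (median -0.173), and the highest was that of *Slc27a1*, a fatty acid transport protein, with r = 0.743 (exact permutation p = 0.0227, rho = 0.833, exact permutation p = 0.0154). The adjusted p was 0.981 for each of these 5 genes and between 0.526 (*Zfyve19*) and 0.981 for the 10 most like *Adipoq*. After quantile normalisation r was between 0.0392 (*Dnmt1*) and 0.458 (*Aifm2*) for those 10, 0.178 for *Slc7a10* among them. It was 0.877 for *Rarres2*, 0.102 for *Agt*, -0.0222 for *Adcy6* and 0.239 for *Slc27a1*. Since *Adipoq* then stood apart in a single array only, these r values are no check of the relations either. All 9 endothelial markers tested had a positive r with *Adipoq*, with a median of 0.417, as had 56.2% of all genes. Of the 9, 0 had an r above 0.7 and 0 an unadjusted exact permutation p below 0.05.

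Skeletal muscle RNA differed between the arrays in another way. The 15 muscle genes tested, among them those for actin, creatine kinase and troponins, had a median deviation of -1.44, 0.16, 0.86 and 0.74 SD in collagen-diet replicates 1 to 4, against 0.21, 0.52, 0.33 and -1.40 SD in control-diet replicates 1 to 4. Collagen-diet replicate 1 and control-diet replicate 4 were the lowest 2 arrays in 14 of the 15. The same held for 2 of the 24 adipocyte genes, *Slc2a4* and *Ppargc1a*, and for 5.93% of all genes. None of the 15 muscle genes had a positive r with *Adipoq*, and their median r was -0.372. Without these 2 arrays, a choice made after seeing the data, 12 adipocyte genes were above 0 and 12 below, the difference was -4.22 SD for *Pparg* (adjusted p = 0.687, limma) and -1.57 SD for *Mgll* (adjusted p = 0.990), and 13.8% of the pairs of adipocyte genes had an r above 0.7, against 7.36% of the pairs with other genes. The part of muscle in the values of *Slc2a4* and *Ppargc1a* was not tested.

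The wider pathway lists of adipocytes also gave 0 genes at an adjusted p below 0.05 in limma. Among the 28 other triglyceride and fatty acid genes, 12 had higher and 16 lower means on the collagen diet (median -0.0675 SD), while 54.5% of all genes were lower. An unadjusted limma p below 0.05 with a lower mean was found for 4.15% of all genes and for 3 of these 28. These were *Aldh2*, a mitochondrial aldehyde dehydrogenase (-2.01 SD, limma adjusted p = 0.861), *Dgat1*, which adds the last acyl chain of triglyceride (-1.99 SD, limma adjusted p = 0.861), and *Elovl6*, a fatty acid elongase (-1.93 SD, limma adjusted p = 0.872). With the mean of all probe sets the differences were -0.68 SD for *Aldh2*, -1.91 SD for *Dgat1* and -1.08 SD for *Elovl6*. Of the 15 other insulin and adrenergic genes, 6 were higher and 9 lower (median -0.360 SD). Their single gene at an unadjusted p below 0.05 was *Irs2*, the partner of *Irs1* in insulin signalling (-2.81 SD, limma adjusted p = 0.646). Its groups did not overlap, as in 2.53% of all genes in this direction, and its sign turned under quantile normalisation. *Irs1* at 1.49 SD and *Irs2* at -2.81 SD lay on opposite sides of 0, and neither passed the test. The 18 other adipogenic regulators split 11 to 7 (median 0.132 SD) and the 9 preadipocyte genes 5 to 4 (median 0.203 SD), with 0 at an unadjusted p below 0.05 in either.

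Of the 18 other adipokines and secreted or surface proteins, 15 had higher and 3 lower means on the collagen diet, with a median of 0.586 SD. Among all genes 45.5% had higher means, 1.21% of all with an unadjusted limma p below 0.05. Those of the 18 with such a p were *Apln*, which encodes the peptide apelin (2.61 SD, limma adjusted p = 0.754), and *Lepr*, the leptin receptor (2.31 SD, limma adjusted p = 0.779). In both genes all 4 collagen-diet arrays lay above all 4 control-diet arrays, as in 0.777% of all genes. The sign of *Apln* and of *Lepr* turned under quantile normalisation, and that of *Apln* also under median centring. Of the 11 brown and beige fat genes, 4 were higher and 7 lower (median -0.425 SD), while 54.5% of all genes were lower. An unadjusted limma p below 0.05 was found for 3, all lower, namely *Cidea*, *Elovl3* and *Tmem26*, and in this direction for 4.15% of all genes. *Tmem26*, a surface protein used as a beige fat marker, differed by -2.54 SD (limma adjusted p = 0.861), and its sign turned under quantile normalisation. Its level was also among the lowest 50%, and with the mean of all probe sets the difference was -0.80 SD. *Cidea* and *Elovl3* are also genes of the sebaceous gland, and both stand in that marker list too.

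*Pparg* is expressed in sebocytes, the lipid-making cells of the sebaceous gland, as well as in adipocytes, and its values are therefore given beside those of sebaceous markers. Of the 7 sebaceous gland markers tested, 6 had lower means on the collagen diet, as had 54.5% of all genes. The median of the 7 was -1.16 SD. *Far2* was 0.707 SD after quantile normalisation, the value that tied arrays with a single array apart give, so its sign there is no check. *Awat1*, *Awat2* and *Soat1* of the same list were not analysed here. The median deviation of the 7 was -0.50, -0.39, -0.98 and -0.74 SD in collagen-diet replicates 1 to 4, against 1.49, 1.31, 0.62 and 0.41 SD in control-diet replicates 1 to 4, so that the diets did not overlap in this median. *Cidea*, a droplet protein of brown fat and sebocytes, stood at -0.82, -2.08, -2.74 and -1.53 SD in collagen-diet replicates 1 to 4, against 2.44, 3.09, 0.69 and 0.96 SD in control-diet replicates 1 to 4. The 4 collagen-diet arrays lay below the 4 control-diet arrays, with a difference of -3.59 SD (limma adjusted p = 0.545). Such a separation was found for 1 of the 7 markers and for 2.53% of all genes. *Elovl3*, a fatty acid elongase of sebocytes and brown fat, differed by -2.35 SD (limma adjusted p = 0.777), and *Plin2*, a droplet coat protein of many lipid-laden cells, by -1.56 SD (limma adjusted p = 0.950). *Krt79*, *Far2* and *Mc5r* differed by -1.16, -0.99 and -0.38 SD, and *Scd3* by 0.75 SD.

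Over the 8 arrays *Pparg* and *Cidea* had r = 0.983 (exact permutation p = 4.96e-05, rho = 0.976, exact permutation p = 3.97e-04), with an adjusted p of 0.473 over the 305340 relations. The relation was 0.969 without the 2 arrays farthest from the median of *Pparg* and 0.964 for deviations from the diet means. After quantile normalisation *Cidea* had too little spread within the diets to be fitted, so the r of -0.57 there is no check of the relation. *Pparg* had r = 0.916 with *Plin2* and r = 0.895 with *Elovl3*, and 0.876 and 0.680 for deviations from the diet means. With *Far2* it had r = 0.746 and with *Mc5r* r = 0.523, and 0.696 and 0.647 for deviations from the diet means. For the other 2 markers r was 0.270 for *Krt79* and -0.497 for *Scd3*, and -0.432 and -0.329 for deviations from the diet means. Among the markers of other cell types, *Pparg* had r = 0.830 with *Cd163* of macrophages, above its r with *Far2* and *Mc5r*. It had r = -0.716 with *Lum* of fibroblasts and r = -0.699 with *Lyz2* of macrophages. With *Adipoq* it had r = -0.0782. The part of sebaceous glands in the *Pparg* difference was not tested.

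**Figure D5:**
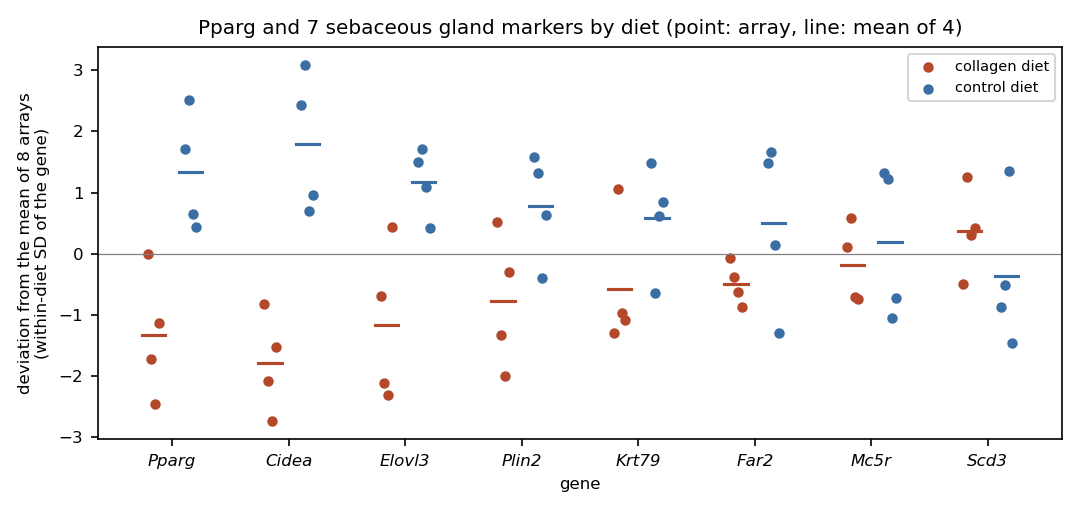
*Pparg* and 7 sebaceous gland markers by diet, as deviations from the gene's mean over the 8 arrays in within-diet SD, with 1 point per array and a line at the mean of 4, collagen diet in red left of control diet in blue. *Pparg* and *Cidea* show no overlap between the diets, and the other 6 markers do.

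Markers of the other cell types of skin were measured beside the adipocyte genes. Of 9 endothelial markers 7 had higher means on the collagen diet (median 0.196 SD), of 8 macrophage markers 6 (median 0.30 SD), of 7 dermal fibroblast markers 6 (median 0.625 SD) and of 7 basal keratinocyte markers 4 (median 0.109 SD). All 15 muscle genes had higher means, with a median of 0.230 SD, as had 45.5% of all genes. None of these markers passed the test in limma (smallest adjusted p 0.820, for a macrophage marker). An unadjusted limma p below 0.05 was found for 2 macrophage markers, 1 higher and 1 lower, and for 5.36% of all genes. Their part in the values of adipocyte genes was not tested.

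Further probe sets of the same genes gave a check on the one used. The 27 adipocyte genes had 31 of them, of which 23 had the same sign of the diet difference as the one used, and 13 had an r above 0.7 with it over the 8 arrays. Of the 17 above the level filter 14 had the same sign, and of the 14 below it 9 did. *Lipe* showed the widest gap: probe set 1432180_at, at a mean of 6.15 log2 and below the level filter, differed by -3.51 SD with non-overlapping groups, against 0.45 SD for the one used. The further probe set of *Adipor2*, 1437864_at, differed by -0.827 SD against 0.25 SD.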

How the data were processed

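Total RNA of powdered frozen dorsal skin was copied from the 3′ end, labelled with biotin and hybridised to an oligonucleotide array, per the labels' protocols. The authors deposited 1 log2 value per probe set and array, from 5.34 to 14.27; the scale was judged from this range. The submitters' processing notes name R 2.7.2; how the values were summarised and normalised is not given in these sources, and background levels of the probes were not used here. Precision is that of the spread between 4 arrays per diet. At most 0.0155% of the values were equal between any 2 arrays.

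Of 45101 probe sets, 64 control probe sets were left out; of the rest 34945 carried 1 symbol, 932 several and 9160 none in the platform annotation, which can be old. Only those with 1 symbol were used. Diets were assigned from the sample titles and compared by a two-sided moderated test of limma (version 3.58.1, under R 4.3.3) whose variance prior follows the mean level, with p-values adjusted by Benjamini-Hochberg over all 12735 genes at a threshold of 0.05. The model had 6 residual and 0.613 prior degrees of freedom. The 3 genes below the level filter were fitted without the filter. The code was tested on simulated data. Relations over arrays used Pearson r and Spearman rho with exact tests over all 40320 pairings (scipy 1.17.1). All array numbers are the replicate numbers of the labels.

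The 31 genes and the other lists were chosen with earlier results of these data known. Named besides the 31 are, of each other list, at most the 3 genes with the smallest p for diet and the 3 with the highest r with *Adipoq*, the 10 genes with the highest r with *Adipoq* (clones and predicted genes skipped), and probe sets that disagree in sign. *Krt79*, *Far2*, *Mc5r* and *Scd3* were added to give the whole sebaceous list. Alternatives were no level filter or one at 50%, quantile normalisation, median centring, no intensity trend, the replicate block, the mean of all probe sets, deviations from the diet means, and leaving out each array or, chosen after seeing the data, the 2 arrays low in muscle genes.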

Additional observations from a re-analysis of the deposited data

Results flagged for a closer look

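Among the 54 groups of 4 arrays examined for the 27 adipocyte genes, 5 (9.26%) held an array far from the other 3, by its gap to the nearest array divided by the range of the group, above Dixon's critical value at the 95% level. Chance gives about 1 in 20 groups. *Lep* was high in control-diet replicate 4 (0.8368), which lay at 2.06 SD while the other 3 control-diet arrays lay between -0.54 and -0.12 SD. *Insr* was high in control-diet replicate 3 (0.9386), at 0.92 SD against -0.89 to -0.78 SD in the other 3. The remaining 3 concern genes below the level filter: *Acvr1c* was low in collagen-diet replicate 4 (0.8825), *Ucp1* was high in collagen-diet replicate 2 (0.839) and *Aqp7* was low in control-diet replicate 4 (0.8704). Control-diet replicate 4 is also the array that was highest for 5 and lowest for 8 of the 24 adipocyte genes tested (17.7% and 10.7% of all genes), and 1 of the 2 arrays low in muscle genes.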

How the results depend on the processing

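Differences on the deposited scale were very small, and 4 arrays per diet limit every comparison. No adipocyte gene reached an adjusted p below 0.05 under any alternative of the diet test. No gene was related to *Adipoq* after adjustment under the alternatives run for relations. The other level filters, the fit without an intensity trend and the replicate block were not run for them. Of the whole table, 1 gene passed at an adjusted p below 0.05 with the lowest 50% of genes left out, and 0 to 1 did when single arrays were left out (1 without control-diet replicate 1). The number of adipocyte genes at an unadjusted p below 0.05, 2 as reported, was 0 after quantile normalisation, 1 after median centring, 1 without the 2 arrays low in muscle genes and 1 to 3 without single arrays (1 without collagen-diet replicate 3). It was 3 with the mean of all probe sets. The number with a higher mean on the collagen diet, 14 as reported, was 7 after quantile normalisation, 8 after median centring and 10 to 15 without single arrays. The share of pairs with an r above 0.7, 7.25% as reported, was 16.2% after quantile normalisation, 37.7% after median centring and 13.8% without the 2 arrays low in muscle genes. For the pairs of adipocyte genes with other genes these 3 settings gave 33.5%, 54.8% and 7.36%. The cause of these moves was not tested.

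Signs of a diet difference turned as follows, in SD. After quantile normalisation *Plin4* was 0.21, *Lipe* -0.087, *Pde3b* -0.449, *Fabp4* -1.0, *Gpd1* -0.607, *Insr* -0.331, *Irs2* 0.025, *Apln* -0.096, *Lepr* -0.183, *Tmem26* 0.255 and *Far2* 0.707. Of these, the values of *Fabp4* and *Far2* are those that tied arrays give, so their turns are no check. After median centring *Adipoq* was -0.0105, *Pde3b* -0.109, *Cd36* -0.102, *Insr* -0.068, *Car3* -0.069, *Adipor2* -0.141 and *Apln* -0.081. With the mean of all probe sets *Adipor2* was -0.765. Without the 2 arrays low in muscle genes *Cidec* was 0.0040, *Pnpla2* 0.558, *Pde3b* -0.751, *Cd36* -1.11, *Pck1* -0.116 and *Adipor2* -0.141. Leaving out single arrays gave *Adipoq* -1.70 to 0.326, *Lep* -0.817 to 0.071, *Plin4* -1.08 to 0.168, *Cidec* -1.50 to 0.165, *Lipe* -0.395 to 0.846, *Pnpla2* -0.723 to 0.381, *Pde3b* -0.916 to 0.515, *Cd36* -0.486 to 0.605, *Pck1* -0.375 to 0.592, *Agpat2* -2.17 to 0.033, *Slc2a4* -0.219 to 0.715, *Adipor2* -0.117 to 0.591 and *Mc5r* -0.894 to 0.0014.

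The r with *Adipoq* turned sign after quantile normalisation for *Fabp4* (-0.378), *Pparg* (0.062), *Insr* (-0.012), *Slc2a4* (0.068), *Adipor2* (-0.378) and *Adcy6* (-0.022). *Adipoq* then stood apart in a single array only, so these turns are no check of the relations. After median centring r turned sign for *Cd36* (0.605), *Gpd1* (0.342), *Pparg* (0.453) and *Cebpb* (0.63). Under that scaling 81.1% of the pairs of an adipocyte gene with any other gene were positive, with a median r of 0.764. These turns to a positive r are therefore no check of the relations either. With the mean of all probe sets it was -0.020 for *Lpl*, 0.038 for *Cd36* and -0.258 for *Adipor2*, and without the 2 arrays low in muscle genes 0.070 for *Cd36*, 0.0078 for *Gpd1* and 0.313 for *Slc2a4*. Without single arrays it ran from -0.045 to 0.526 for *Retn*, -0.376 to 0.506 for *Lpl*, -0.281 to 0.227 for *Cd36*, -0.238 to 0.028 for *Gpd1*, -0.20 to 0.623 for *Pparg*, -0.373 to 0.46 for *Irs1* and -0.389 to 0.769 for *Car3*. After quantile normalisation *Fabp4* and *Slc2a4* had r = 0.057 and *Pparg* and *Elovl3* r = -0.17. The diet differences of *Fabp4* and *Elovl3* were then values that tied arrays give, so these r values are no check of the relations. The r of -0.57 for *Pparg* and *Cidea* is no check, as *Cidea* had too little spread left within the diets.

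Replicates 1 to 4 of the diets share only a number: deviations of same-numbered arrays correlated at 0.0045, -0.018, 0.185 and -0.072. With the replicate block 0 genes passed at an adjusted p below 0.05, 14 adipocyte genes were above 0 and 10 below, the median difference was 0.109 SD and 3 adipocyte genes had an unadjusted p below 0.05. The 2-array exclusion was chosen after seeing the data.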
